A study of Canis lupus familiaris with 12 samples.

Results

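CCL17, CCL22, CCL20, CXCL10 and CXCL13 encode chemokines that draw lymphocytes, and their mRNA is described here in cultured peripheral blood mononuclear cells (PBMCs) of dogs. They are 5 of the 29822 genes in the deposited tables and were chosen by name, each matching 1 row. Earlier results of these data were known when they were chosen. Blood was drawn from healthy beagles, all male and specific pathogen-free, that served a veterinary hospital as donors. The mononuclear cells were separated on a density gradient, and treatment lasted 24 h. The tested cultures received concanavalin A (ConA) at 0.5 µg/ml with 5-aminolevulinic acid (ALA) at 1.0 mM, ConA alone, or ALA alone, and the controls were untreated. ConA is a plant lectin that activates T cells, and ALA is the precursor from which cells build heme. There are 3 libraries per treatment, numbered 1 to 3 in the titles. The labels do not say whether a number is a separate animal, so the p-values rest on a spread between samples that could be technical.

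Chemokines are small secreted proteins that guide cells along a gradient through receptors on the cell surface. CCL17 and CCL22 share the receptor CCR4, which marks helper type 2, regulatory and skin-homing T cells. CCL20 is the ligand of CCR6 on helper type 17 cells, B cells and immature dendritic cells. CXCL10 is an interferon-induced ligand of CXCR3 on activated helper type 1 and killer T cells. CXCL13 guides B cells and follicular helper T cells through CXCR5. In blood cells, monocytes and dendritic cells are common sources of CCL17, CCL22 and CXCL10, and activated T cells can also make several of the 5. These roles are known mainly from human and mouse.

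Libraries held 13390692 to 21517099 exon reads, and between 11856 and 12917 genes had at least 10. Libraries of number 1 stood apart from the others, with 3.59 to 4.82% of exon reads from mitochondrial genes against 11.8 to 23.3% in numbers 2 and 3, and each group holds 1 library of each number. The part of this split in the results below was not tested. Markers of blood cells were present in every group, and the summed level of 8 T cell markers ran from 601 to 1419 CPM (reads scaled to a common library size) over the 12 libraries. In bulk RNA, fewer cells of a type and less RNA per cell cannot be told apart.

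CCL17 (ENSCAFG00000008754, CanFam3.1 chromosome 2, 59001464 to 59005230, minus strand, 6 exons) and CCL22 (ENSCAFG00000032287, chromosome 2, 59040539 to 59045625, minus strand, 3 exons) lie 35308 bases apart. The only gene annotated between them, CX3CL1, had 1 exon read in the 12 libraries together. CXCL10 (ENSCAFG00000008584, chromosome 32, 597987 to 599979, minus strand, 4 exons) lies 31498 bases from its relative CXCL11, and inside the span of ART3 on the opposite strand. ART3 had 1020 exon reads in all against 58216 for CXCL10. Strand use in counting is not given in the sources used here, and whether any reads counted for CXCL10 came from ART3 was not tested. CXCL13 (ENSCAFG00000008692, chromosome 32, 2047315 to 2052833, plus strand, 4 exons) and CCL20 (ENSCAFG00000010505, chromosome 25, 40506753 to 40509709, plus strand, 4 exons) overlap no other annotated gene. The deposited unique exon reads of the 5 genes equalled their total exon reads.

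**Figure D1:**
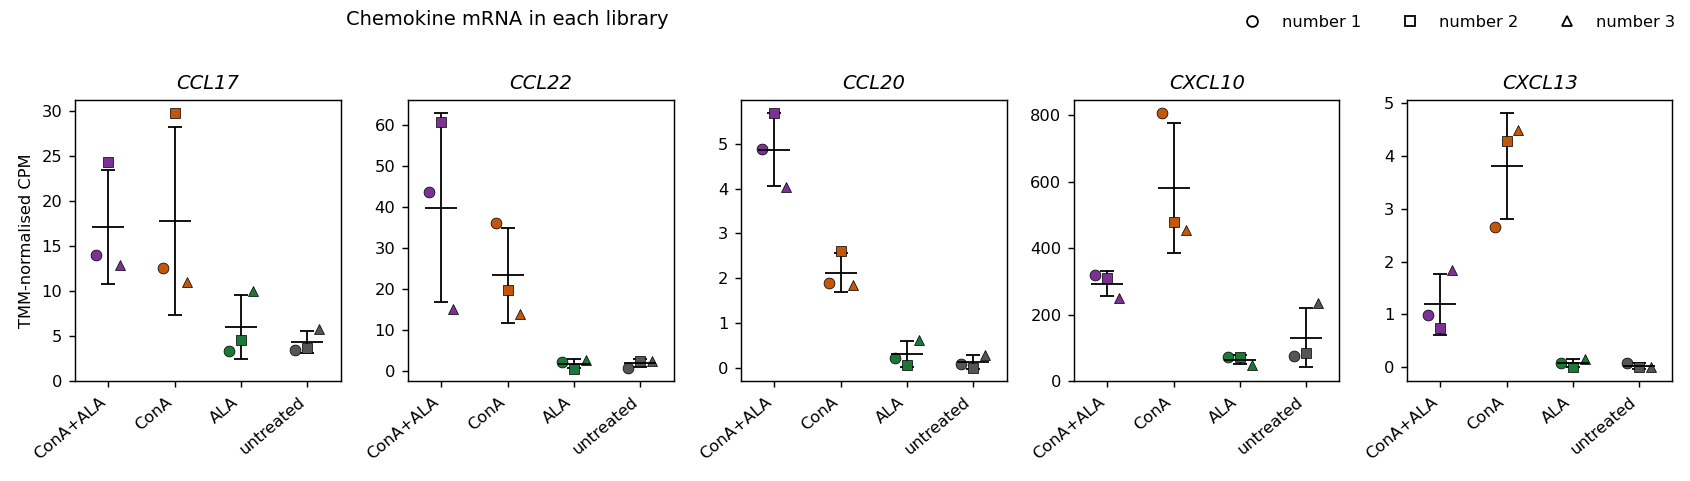
Normalised CPM (y axis, linear, a scale per gene) of the 5 chemokine genes in ConA+ALA, ConA, ALA and untreated cultures (x axis). Points are libraries, their shapes the replicate numbers, and bars the mean ± SD (n = 3). All 5 genes are higher in each ConA library than in any untreated one, as are 17.3% of genes tested. CCL20 and CXCL13 were tested only through their reads in cultures with ConA. CXCL13 lies between 0.748 and 1.84 CPM with ConA+ALA against 2.66 to 4.48 CPM with ConA, lower without overlap as for 3.69% of genes.

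The 5 transcripts differed widely in abundance. On the length-adjusted scale of TPM, which allows levels of different genes to be compared, CXCL10 averaged 530 ± 204 TPM with ConA+ALA, 1089 ± 761 TPM with ConA, 146 ± 69.3 TPM with ALA and 277 ± 139 TPM in untreated cells (SD, n = 3 each). It took 85.5% of the summed mean TPM of the 5 genes with ConA+ALA, 94.5% with ConA, 92.3% with ALA and 96.5% in untreated cells. By mean TPM it ranked 132 among all genes in ConA cultures, where CCL22 ranked 3808, CCL17 4756, CCL20 6804 and CXCL13 7620. The order of the other members depended on the treatment. In ConA cultures CCL22 (27.6 ± 23.1 TPM) and CCL17 (19.5 ± 7.16 TPM) overlapped each other. CCL20 (9.36 ± 2.40 TPM) and CXCL13 (6.88 ± 0.876 TPM) had lower means, and in this order each gene after CXCL10 overlapped the next. With ConA+ALA, CCL22 followed at 44.6 ± 27.1 TPM, CCL20 (22.7 ± 7.38 TPM) and CCL17 (20.5 ± 6.56 TPM) lay within each other's spread, and CXCL13 was the lowest at 2.26 ± 0.899 TPM. With ALA, CCL17 followed CXCL10 at 8.03 ± 2.71 TPM, and CCL22 (2.50 ± 1.63 TPM) and CCL20 (1.51 ± 1.14 TPM) overlapped. In untreated cells CCL17 came after CXCL10 with 6.66 ± 1.30 TPM, above CCL22 at 2.58 ± 0.774 TPM and CCL20 at 0.709 ± 0.703 TPM.

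To describe the response to the mitogen, ConA cultures were compared with untreated ones. All 5 chemokine genes rose, 5 of 5 at an adjusted p under 0.05, where 9.93% of the 13358 genes tested rose and 18.5% changed either way (edgeR's quasi-likelihood test, with p adjusted over all genes by Benjamini-Hochberg). The median log2 fold change of all genes tested was −0.05. The groups did not overlap for any of the 5 genes, higher with ConA, as for 17.3% of genes. CCL20 and CXCL13 reached the read number needed for testing only in cultures with ConA. For these genes a rise was thus partly built into their being tested.

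Among the CCR4 ligands, CCL22 had 36.2, 19.8 and 14.1 CPM in ConA libraries 1, 2 and 3, against 0.900, 2.52 and 2.62 CPM in untreated ones. Each ConA library stood above each untreated one, number 1 having both the highest ConA and the lowest untreated value. The log2 fold change was 3.55 ± 0.65 (SE, adjusted p = 0.0035). CCL17 had 12.6, 29.8 and 11.01 CPM with ConA, against 3.51, 3.75 and 5.82 CPM in untreated cells. It was highest in ConA library 2, and its fold change was smaller than that of its neighbour (2.03 ± 0.50, adjusted p = 0.015). The call for CCL17 was lost without ConA 2 (adjusted p = 0.067), untreated 1 (0.060) or untreated 2 (0.057).

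CCL20, the CCR6 ligand, had few reads without ConA. It had 1.89, 2.62 and 1.85 CPM with ConA (49, 33 and 26 reads), against 0.0900, 0 and 0.291 CPM in untreated cells (2, 0 and 5 reads). The rise was 3.97 ± 0.90 on the log2 scale (adjusted p = 0.0092).

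CXCL10, the CXCR3 ligand, had 806, 480 and 456 CPM with ConA, against 74.9, 84.6 and 235 CPM in untreated cells. It rose by 2.14 ± 0.42 (adjusted p = 0.0047), and untreated 3 was the untreated library nearest to the ConA libraries. Its neighbour CXCL11, another CXCR3 ligand, was too low to be tested, with 37 reads over the ConA group against 1 in untreated cells.

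CXCL13, the CXCR5 ligand, had 69, 54 and 63 reads in the ConA libraries, against 2, 0 and 0 reads in untreated ones. Reads in the ConA group exceeded those in untreated cells by a ratio of 96.9 after scaling for library size (95% interval 26.5 to 806, exact binomial, counting error only). Its adjusted p was 0.0017. With so few reads in the controls, the size of this change is poorly known, and the interval leaves out the spread between libraries.

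The size of the ConA response differed by number. Number 3 gave the smallest ConA to untreated ratio for CCL17 (1.89, against 3.58 and 7.95 in numbers 1 and 2), for CCL22 (5.38, against 40.2 and 7.86) and for CXCL10 (1.94, against 10.8 and 5.67). Untreated 3 had the highest untreated level of each of these genes and of CCL20. Without the 4 libraries of number 2 none of the 5 genes passed (adjusted p 0.067 to 0.22), when 55 genes of all tested did. Without number 1, 3 of 5 passed, and CCL22 (2.73 ± 0.78, adjusted p = 0.061) and CXCL10 (1.57 ± 0.44, adjusted p = 0.053) did not. With the replicate block and without number 1, CCL22 (adjusted p = 0.089) and CXCL10 (0.12) did not pass, nor did CXCL10 with the block and without number 2 (0.12). No single library left out ended the call of CCL22 or CXCL10. Every fit kept the direction of each of the 5 genes.

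The same response was examined with ALA present, by comparing ConA+ALA cultures with ALA cultures. Of the 5 genes 4 rose, where 5.09% of genes rose and 8.12% changed either way, and the groups did not overlap for 5 of 5 (14.9% of genes, higher). Here too CCL20 and CXCL13 could be tested only because of their reads in cultures with ConA. CCL22 had 43.8, 60.7 and 15.2 CPM with ConA+ALA, against 2.23, 0.654 and 2.72 CPM with ALA (4.41 ± 0.68, adjusted p = 0.0036). CCL20 had 4.88, 5.68 and 4.04 CPM with ConA+ALA, against 0.207, 0.0654 and 0.621 CPM with ALA (4.05 ± 0.85, adjusted p = 0.014). Both genes were lowest in ConA+ALA 3 and highest in ConA+ALA 2.

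CXCL10 had 320, 309 and 249 CPM with ConA+ALA, against 74.3, 72.9 and 49.1 CPM with ALA. It rose by 2.16 ± 0.42 (adjusted p = 0.0096), by 4.31, 4.25 and 5.08 times within numbers 1, 2 and 3, a narrower range than between ConA and untreated cultures. CXCL13 had 23, 10 and 20 reads with ConA+ALA, against 2, 0 and 2 with ALA (3.82 ± 0.99, adjusted p = 0.031). CXCL13 lost its call without any 1 of ConA+ALA 1, 2 or 3, ConA 3, ALA 1 or ALA 2 (adjusted p 0.054 to 0.11), and CCL20 lost it without ALA 1 (0.063) or ALA 2 (0.055).

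CCL17 had 14.1, 24.4 and 12.96 CPM with ConA+ALA, against 3.35, 4.58 and 10.0 CPM with ALA. ALA 3 was close to the lowest ConA+ALA library, and the fold change of 1.53 ± 0.49 did not pass (adjusted p = 0.080). With the replicate number as a block CCL17 passed (1.56 ± 0.42, adjusted p = 0.017), where 15.8% of genes rose, as it did without ALA 3 (2.11 ± 0.51, adjusted p = 0.031). Without number 2 none of the 5 genes passed (and no gene at all), and without number 1 or number 3, 2 of 5 did. With the block, CXCL10 did not pass without number 1 (adjusted p = 0.086) or number 2 (0.12).

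**Figure D2:**
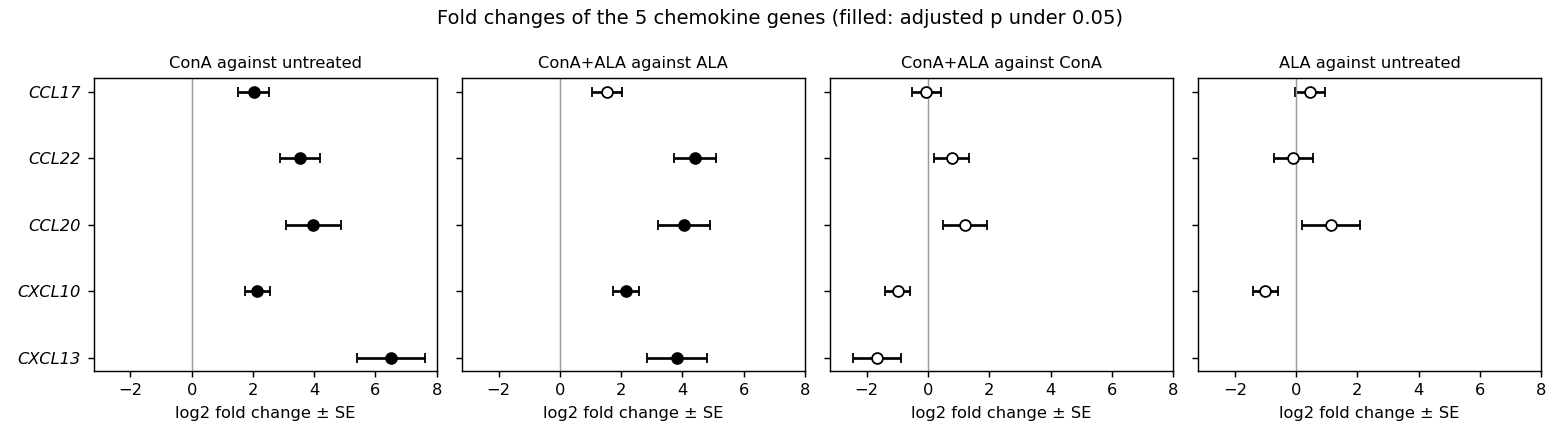
Log2 fold changes (x axis) with SE for each chemokine gene (rows) in 4 comparisons, from the model without the block. Filled circles passed at an adjusted p under 0.05: 5 genes with ConA against untreated, 4 with ConA+ALA against ALA and 0 in the comparisons of ALA. Of all genes tested, 9.93% rose with ConA against untreated and 5.09% with ConA+ALA against ALA. CCL20 and CXCL13 reached the read number needed for testing only in cultures with ConA, so their rises were partly built in. CXCL13 is left out of ALA against untreated, where it had 4 and 2 reads. Its ConA against untreated estimate rests on 2 untreated reads.

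To ask what ALA did to stimulated cells, ConA+ALA cultures were compared with ConA cultures. None of the 5 genes passed, and none of the 13358 genes tested did (0%; 445 genes at an unadjusted p under 0.05, edgeR's quasi-likelihood test). DESeq2 called 49 genes, limma-voom 0 and the model with the replicate block 74 (0.554%), none of them one of the 5. The values of the 5 genes nonetheless lay in different places: CXCL10 and CXCL13 were lower with ALA in 3 of 3 numbers, CCL20 and CCL22 higher in 3 of 3, and CCL17 higher in numbers 1 and 3 only. Of all genes, 18.1% were lower and 16.2% higher in 3 of 3 numbers.

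CXCL13 had 0.992, 0.748 and 1.84 CPM in ConA+ALA libraries, against 2.66, 4.28 and 4.48 CPM in ConA libraries. All 3 ConA+ALA libraries lay below all 3 ConA libraries, as for 3.69% of genes. Within numbers 1, 2 and 3 the ConA+ALA level was 0.374, 0.175 and 0.411 of the ConA level. The log2 fold change of −1.68 ± 0.78 did not pass (unadjusted p = 0.053, adjusted p = 1).

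CXCL10 had 320, 309 and 249 CPM with ConA+ALA, against 806, 480 and 456 CPM with ConA, again with no overlap. The level with ConA+ALA was 0.397, 0.645 and 0.547 of that with ConA in numbers 1, 2 and 3. The fold change was −0.99 ± 0.41 (unadjusted p = 0.032, adjusted p = 1), and −0.67 ± 0.42 without ConA 1. CXCL11 had 8 reads over the ConA+ALA group against 37 over the ConA group.

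CCL20 lay on the other side. Its 113, 76 and 44 reads with ConA+ALA were 4.88, 5.68 and 4.04 CPM, against 1.89, 2.62 and 1.85 CPM with ConA. The groups did not overlap, as for 4.05% of genes, higher, and the ratios within numbers were close to each other at 2.58, 2.17 and 2.19. The fold change was 1.20 ± 0.73 (unadjusted p = 0.12, adjusted p = 1).

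The CCR4 ligands were less uniform. CCL22 had 43.8, 60.7 and 15.2 CPM with ConA+ALA, against 36.2, 19.8 and 14.1 CPM with ConA, and the groups overlapped. Number 2 showed a ratio of 3.06, and numbers 1 and 3 showed 1.21 and 1.08. The fold change of 0.77 ± 0.58 (adjusted p = 1) was 0.34 ± 0.63 without ConA+ALA 2 and 1.24 ± 0.64 without ConA 1. CCL17 had 14.1, 24.4 and 12.96 CPM with ConA+ALA, against 12.6, 29.8 and 11.01 CPM with ConA, with a fold change of −0.05 ± 0.48 (adjusted p = 1). The order of the 3 numbers was the same in both groups for CCL17.

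**Figure D3:**
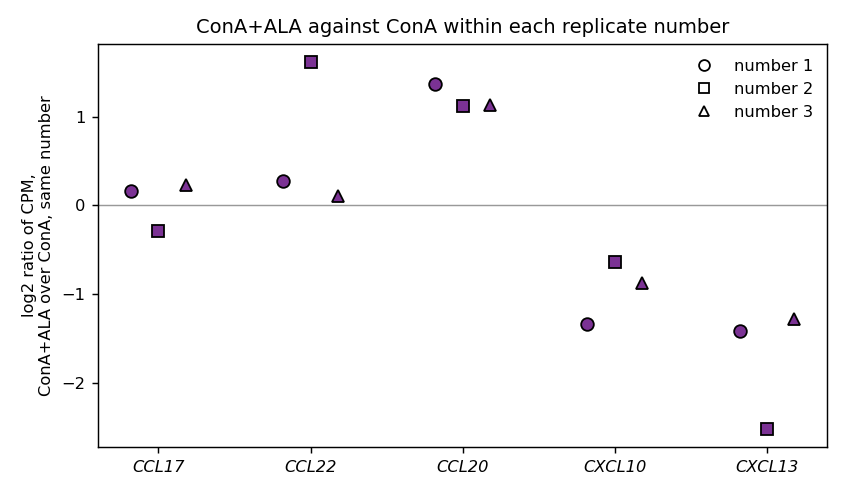
Log2 ratio of CPM in ConA+ALA over ConA libraries of the same number (y axis) for each chemokine gene (x axis), with a point for each of numbers 1, 2 and 3. CXCL10 and CXCL13 lie below 0 and CCL20 and CCL22 above 0 in all 3 numbers. Of all genes tested, 18.1% were lower and 16.2% higher in 3 of 3 numbers. None of the 5 genes passed the test across all genes.

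ALA cultures were also compared with untreated ones, to describe ALA without the mitogen. None of the 5 genes passed, as none of all genes tested did (0%; 155 at an unadjusted p under 0.05 with edgeR's quasi-likelihood test, 4 called by DESeq2, 0 by limma-voom and 6, or 0.0449%, with the block). CXCL10 had 74.3, 72.9 and 49.1 CPM with ALA, against 74.9, 84.6 and 235 CPM in untreated cells. The groups did not overlap, as for 2.36% of genes, lower, but ALA 1 and untreated 1 were nearly equal and the difference rested on number 3. The fold change was −1.01 ± 0.41 (unadjusted p = 0.029, adjusted p = 1) and −0.29 ± 0.30 without untreated 3.

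CCL17 had 3.35, 4.58 and 10.0 CPM with ALA, against 3.51, 3.75 and 5.82 CPM in untreated cells (0.45 ± 0.49, adjusted p = 1). CCL22 had 2.23, 0.654 and 2.72 CPM with ALA, against 0.900, 2.52 and 2.62 CPM in untreated cells (−0.09 ± 0.64, adjusted p = 1). Both genes overlapped between the groups. CCL20 had 5, 1 and 8 reads with ALA, against 2, 0 and 5 in untreated cells (1.12 ± 0.95, adjusted p = 1). CXCL13 had 4 reads in the 3 ALA libraries together, against 2 in the untreated ones, too few to give a fold change.

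Whether the ALA difference itself depended on ConA was tested as an interaction. None of the 5 genes passed (adjusted p = 1 in each, 0 at an unadjusted p under 0.05), and none of all genes did (0%; 222 at an unadjusted p under 0.05 with edgeR, 4 called by DESeq2, 0 by limma-voom and 0 with the block). For CXCL10 the interaction was 0.02 ± 0.57, and for CCL22 0.86 ± 0.86. The CXCL10 value ran from −0.91 to 0.63 over its 27 alternatives, of which 14 kept its direction. For CCL17 the interaction was −0.50 ± 0.68 and for CCL20 0.08 ± 1.19. CXCL13, at −2.69 ± 1.53, rests on 4 and 2 reads in the cultures without ConA. These errors are wide against the ALA differences themselves. The comparisons above share their control libraries, so their values for a gene are not independent of each other.

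The receptors of the 5 chemokines were measured in the same cells. None of the 4 passed with ConA against untreated, with a median log2 fold change of −0.09, near the −0.05 of all genes tested. CCR4, the receptor of CCL17 and CCL22, stood at 23.3 ± 20.3 CPM with ConA against 5.06 ± 3.79 CPM in untreated cells (SD, n = 3 each; 2.20 ± 0.77, adjusted p = 0.069), and rose with the replicate block (2.15, adjusted p = 2.6e-05), where 21.3% of genes rose. CXCR3, the receptor of CXCL10, stood at 5.96 ± 3.14 CPM with ConA against 10.6 ± 5.87 CPM in untreated cells (−0.83 ± 0.52, adjusted p = 0.30). CCR6, the receptor of CCL20, and CXCR5, the receptor of CXCL13, stood at −0.20 ± 0.46 and 0.03 ± 0.51 on the log2 scale (adjusted p = 0.81 and 0.98). Between ConA+ALA and ConA none of the 4 passed either, with a median of −0.31. CXCR3 had 2.96 ± 1.498 CPM with ConA+ALA against 5.96 ± 3.14 CPM with ConA (−1.0 ± 0.53, adjusted p = 1).

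Of 12 other chemokines that attract lymphocytes, 8 matched a symbol and 3 were abundant enough to test. CCL5, which attracts T cells and monocytes, rose with ConA to 392 ± 38.3 CPM, against 218 ± 23.6 CPM in untreated cells (0.85 ± 0.20, adjusted p = 0.014). CXCL16, the ligand of CXCR6, stood at 0.11 ± 0.34 and CCL27, a ligand of CCR10, at −0.32 ± 0.98, and neither passed. In the presence of ConA, CXCL16 had 57.0 ± 19.5 CPM with ALA against 100.5 ± 24.9 CPM without it (−0.82 ± 0.34, adjusted p = 1). Of the 4 atypical receptors, which bind chemokines without the usual signalling, 2 were tested and neither passed with ConA. ACKR3, which takes up CXCL11 and CXCL12, had 54.8 ± 25.0 CPM with ConA against 5.61 ± 6.20 CPM in untreated cells (3.29 ± 1.29, adjusted p = 0.10; adjusted p = 0.0077 with the block, which called it as a rise). Of 5 proteases that cleave chemokines none passed, and with the block 1 rose and 1 fell. The macrophage elastase MMP12 had 3.06 ± 3.23 CPM with ConA against 29.9 ± 36.5 CPM in untreated cells (−3.24 ± 1.14, adjusted p = 0.072) and fell with the block (−3.07, adjusted p = 0.0047), where 21.2% of genes fell. DPP4, which trims CXCL10, had 24.9 ± 4.09 CPM with ConA against 10.4 ± 7.65 CPM in untreated cells (1.26 ± 0.46, adjusted p = 0.077) and rose with the block (1.43, adjusted p = 0.00036). Between ConA+ALA and ConA no protease passed, also with the block, and 4 of 5 stood above 0 with a median of 0.28. MMP12 had 28.6 ± 14.8 CPM with ConA+ALA against 3.06 ± 3.23 CPM with ConA (3.18 ± 1.14, and 3.66 with the block, adjusted p = 0.065). MMP9, also on this list, is given with the neutrophil markers below.

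The genes around interferon divided. CXCL10 is induced by interferon gamma and by type I interferons. With ConA against untreated, 5 of 13 tested genes of the interferon gamma list rose and 1 fell, with a median of 0.48, and with the block 7 rose and 3 fell. IFNG itself rose to 78.8 ± 43.4 CPM, against 2.08 ± 1.99 CPM in untreated cells (5.21 ± 0.86, adjusted p = 0.0022), and so did the immune checkpoint ligand CD274 (1.76 ± 0.34, adjusted p = 0.0046). Of 15 tested genes of the type I interferon list 13 fell (14 with the block) and 0 rose, with a median of −2.18. The antiviral genes IFIT3 (−2.63 ± 0.42) and OAS1 (−2.99 ± 0.48) were among those that fell (adjusted p = 0.0015 and 0.0016).

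No gene of either list passed with ConA+ALA against ConA. In the interferon gamma list 12 of 13 tested genes stood below 0, with a median of −0.24, against −0.03 over all genes tested. Without ConA most genes of this list also stood below 0. With ALA against untreated 1 of 13 stood above 0, with a median of −0.30. The summed list had 4176, 5807 and 5412 CPM in ALA libraries 1, 2 and 3, against 4288, 6152 and 6921 CPM in untreated ones. The widest gap was in number 3, and how far the median rests on untreated 3 was not tested. IDO1, a tryptophan-degrading enzyme induced by interferon gamma, had 207 ± 15.3 CPM with ConA+ALA against 1663 ± 268 CPM with ConA (−3.01 ± 0.45, adjusted p = 0.10). The tryptophan tRNA synthetase WARS stood at −0.94 ± 0.42 (adjusted p = 1). IFNG had 55.5 ± 11.5 CPM with ConA+ALA against 78.8 ± 43.4 CPM with ConA. In the type I list 14 of 15 stood above 0, with a median of 0.51. With ALA against untreated 14 of 15 did so too, with a median of 0.37. The part of either interferon in the CXCL10 values was not tested.

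CCL17 and CCL22 are induced by IL4, IL13 and the growth factor GM-CSF (CSF2) in human and mouse cells. Of 11 tested genes of that list 3 rose and 1 fell with ConA against untreated, with a median of 1.05, and with the block 7 rose and 2 fell. IL13 rose to 75.1 ± 31.5 CPM, against 3.44 ± 2.40 CPM in untreated cells (4.45 ± 0.93, adjusted p = 0.0079), and IL4 rose by 3.41 ± 0.99 (adjusted p = 0.030). IL4 had 68 reads over the ConA group, against 7 in untreated cells and 4 with ALA. Its being tested rests on cultures with ConA, so its rise was partly built in. The one that fell was the receptor chain IL13RA1 (−1.71 ± 0.35, adjusted p = 0.0067). None of the 11 passed with ConA+ALA against ConA, where 6 of 11 stood above 0 with a median of 0.14. CSF2 had 96.03 ± 21.9 CPM with ConA+ALA against 14.3 ± 6.44 CPM with ConA (2.75 ± 0.83, adjusted p = 0.92), and IL4 had 5.83 ± 1.51 CPM with ConA+ALA against 1.45 ± 0.702 CPM with ConA (2.02 ± 0.83, adjusted p = 1). On the other side, the receptor chain CRLF2 had 71.9 ± 8.48 CPM with ConA+ALA against 127 ± 30.8 CPM with ConA (−0.82 ± 0.27, adjusted p = 1).

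CCL20 is a target of TNF, IL1 and IL17 signalling and of NF-κB. Of 12 tested genes of the TNF, IL1 and IL17 list 1 rose and 1 fell with ConA against untreated, the cytokine TNF (2.57 ± 0.41, adjusted p = 0.0016) and its receptor TNFRSF1A (−0.90 ± 0.22, adjusted p = 0.014), and with the block 2 rose and 1 fell. Of 9 tested NF-κB subunits and feedback genes 3 rose and 0 fell, NFKB1 (1.09 ± 0.21), NFKB2 (0.83 ± 0.22) and NFKBIA (1.20 ± 0.35), with adjusted p of 0.0044, 0.020 and 0.032, and 6 rose with the block. None of either list passed with ConA+ALA against ConA. In the TNF, IL1 and IL17 list 9 of 12 stood above 0 there with a median of 0.20, and in the NF-κB list 7 of 9 with a median of 0.12. IL22, a helper type 17 cytokine, had 130.2 ± 49.6 CPM with ConA+ALA against 11.4 ± 4.01 CPM with ConA (3.51 ± 1.79, adjusted p = 1).

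CXCL13 is made by follicular helper T cells in human, and by stromal cells in response to lymphotoxin. Of 13 tested genes of the lymphotoxin and follicular helper list 5 rose and 0 fell with ConA against untreated, with a median of 0.19, and with the block 5 rose and 2 fell. Among them were lymphotoxin alpha LTA (3.64 ± 0.35, adjusted p = 0.00014), IL21 (5.31 ± 0.69, adjusted p = 0.00064), ICOS (3.04 ± 0.52, adjusted p = 0.0024) and PDCD1 (2.06 ± 0.40, adjusted p = 0.0044). IL21 had 1060 reads over the ConA group, against 28 in untreated cells and 22 with ALA. Its being tested also rests on cultures with ConA, so its rise was partly built in. With ALA added to ConA no gene of the list passed, and IL21 had 28.0 ± 5.99 CPM with ConA+ALA against 19.8 ± 1.36 CPM with ConA. The part of the signals in these lists in the values of CCL17, CCL22, CCL20 and CXCL13 was not tested.

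**Figure D4:**
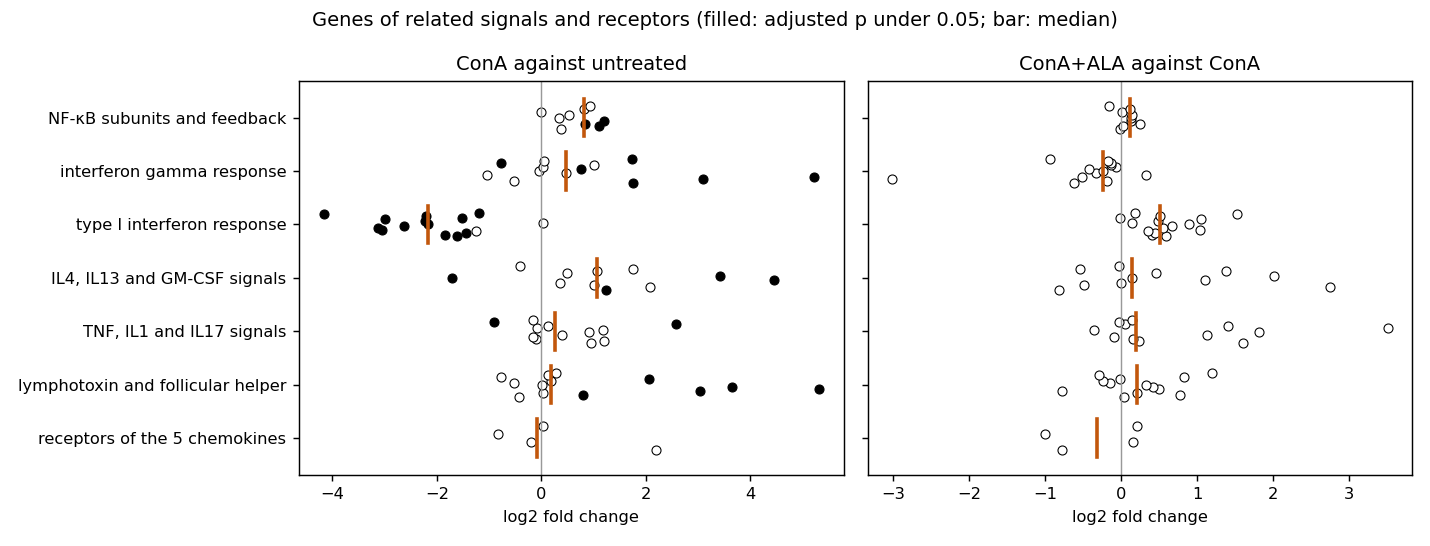
Log2 fold changes (x axes, differing in range) of the tested genes of 7 lists (rows) with ConA against untreated and with ConA+ALA against ConA. Points are genes, filled where the adjusted p is under 0.05, and bars are list medians; 13 of 15 type I interferon genes fell with ConA, and no gene of these lists passed with ConA+ALA against ConA.

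Cell type markers moved with ConA as well. Of 7 tested monocyte markers 2 fell and 0 rose with ConA against untreated, and 6 fell with the block. Their summed level was 101 to 349 CPM in ConA libraries against 432 to 784 CPM in untreated ones. LYZ had 6.43 ± 2.30 CPM with ConA against 108 ± 75.1 CPM in untreated cells (−4.06 ± 0.86, adjusted p = 0.0087). Of 5 tested dendritic cell markers 1 rose and 1 fell (2 fell with the block), with sums of 381 to 527 CPM with ConA against 178 to 245 CPM in untreated cells. BATF3, a transcription factor that activated T cells also express, rose to 245 ± 122 CPM with ConA against 17.7 ± 11.6 CPM in untreated cells (3.79 ± 0.60, adjusted p = 0.0015) and makes up most of the difference in the sum. CCR7, also counted here among the lymphocyte receptors, had 164 ± 31.3 CPM with ConA against 130.5 ± 48.1 CPM in untreated cells. It holds a large part of both sums, so the sum is not a measure of dendritic cells alone. CD1C fell to 5.38 ± 0.733 CPM with ConA against 10.9 ± 2.93 CPM in untreated cells (−1.02 ± 0.29, adjusted p = 0.031). FLT3 stood at −0.70 ± 0.30 (adjusted p = 0.12, and 0.035 with the block), and 3 of the 5 markers stood above 0. Of 8 T cell markers 1 rose and 1 fell (1 and 5 with the block), with sums of 601 to 1077 CPM with ConA against 839 to 1419 CPM in untreated cells. Of the other markers, 2 of 7 B cell (5 with the block), 1 of 4 natural killer cell (3 with the block) and 3 of 4 neutrophil markers fell. None of 2 platelet, 3 erythroid or 3 epithelial markers passed, and with the block 1 erythroid marker fell and 1 epithelial marker rose and 1 fell. None of 6 other lymphocyte chemokine receptors passed, and with the block CXCR4 (−1.22, adjusted p = 0.00078) and CXCR6 (−1.05, adjusted p = 0.0029) fell. Their part in the chemokine changes was not tested.

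With ConA+ALA against ConA, no marker passed without the block. Summed monocyte markers were 117 to 355 CPM with ConA+ALA against 101 to 349 CPM with ConA, and summed T cell markers 642 to 1039 CPM against 601 to 1077 CPM. Summed neutrophil markers were 656 to 2406 CPM with ConA+ALA against 73.9 to 155 CPM with ConA. The largest share came from MMP9, which had 1226 ± 957 CPM with ConA+ALA against 65.7 ± 45.4 CPM with ConA (4.22 ± 1.41, adjusted p = 1). CSF3R, a defining neutrophil receptor, had 0.632 CPM with ConA+ALA against 0.550 CPM with ConA in the mean. It was near the floor, with 29 and 31 reads over these groups. S100A12 had 11.8 ± 5.87 CPM with ConA+ALA against 2.07 ± 2.33 CPM with ConA. All 4 tested neutrophil markers stood above 0, with a median log2 fold change of 1.71. With the block the Fc receptor FCGR1A (2.22, adjusted p = 0.017) and the calgranulin S100A8 (0.90, adjusted p = 0.012) rose. Their part in the chemokine values was not tested.

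Intron reads made up 1.81% of CCL17 gene reads over the 12 libraries, 7.55% for CXCL13, 8.69% for CXCL10, 15.8% for CCL20 and 21.7% for CCL22. For CCL22 the intron share was 20% with ConA+ALA, 23.8% with ConA, 26.7% with ALA and 18.8% in untreated cells. For CXCL10 it was 8.84% with ConA+ALA, 6.57% with ConA, 13.9% with ALA and 15.0% in untreated cells, and its introns lie within the span of ART3. Exon and intron reads of CCL22 were higher together with ConA (1388 and 433 reads, against 104 and 24 in untreated cells).

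The transcripts whose log2 CPM ran most like each chemokine over the 12 libraries were found among 10073 tested genes that carry a symbol and average 20 or more reads per library. For CXCL10 these were GBP1, an interferon-induced GTPase, ARID5A and LPIN2 (Pearson r = 0.971, 0.970 and 0.966). For CXCL13 they were the replication factor GINS2, ASNSD1 and the interleukin-12 receptor chain IL12RB2 (0.986, 0.969 and 0.967). For CCL20 they were the peroxiredoxin PRDX6, IL9 and LTA (0.979, 0.973 and 0.966). For CCL22 they were the proteasome subunit PSMA5, the interleukin-21 receptor IL21R and EIF2B3 (0.967, 0.961 and 0.960), and for CCL17 IPO4, ELK3 and MRPL46 (0.971, 0.967 and 0.962). Among the 5 chemokines themselves r was highest for CCL20 with CCL22 (0.926) and lowest for CCL17 with CXCL10 (0.717). These values describe 12 libraries that share treatments and numbers. How much of them comes from the split between cultures with and without ConA was not tested.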

How the data were processed

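Poly(A) RNA of 12 canine PBMC cultures was sequenced with 75 bp paired ends on a NextSeq 500, per the labels. CanFam3.1 and bcl2fastq stand in the submitters' processing notes. The sources used here name no aligner, counting tool or strand setting. Per the file headers, the deposited tables hold exon, intron and gene reads as counts with no normalization, and TPM computed by the authors. TPM served only to compare levels between genes.

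Groups and numbers came from the titles. The main test used total exon counts and edgeR 4.0.16, run in R 4.3.3 (TMM, filterByExpr, robust quasi-likelihood F-test, 4 group means, 12 libraries), with Benjamini-Hochberg adjusted p under 0.05 over 13358 genes. SE is the fold change divided by the root of F. The procedure was tested on simulated data that held no effect of the replicate number, so that test does not cover the likeness within numbers given below. CPM are on TMM-scaled library sizes. Counting intervals are at 95%, cover counting error only, and were used where a group had few reads.

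The 5 genes, the 20 other gene lists and the tests were chosen with earlier results of these data known. Of 165 other list genes 145 matched a symbol; the rest were not analysed here. Named were the 5 genes, up to 4 genes of each list by smallest unadjusted p with ConA against untreated and up to 2 with ConA+ALA against ConA, and the 3 genes most like each chemokine. CXCL11, CX3CL1 and ART3 were named for their position.

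Libraries of the same number correlated in their deviations from the group means at 0.376 to 0.748 (18 pairs), each above the threshold of 0.1, and those of other numbers in other groups at −0.498 to 0.206. The pairing thus rests on titles and correlations. The blocked fit is an alternative; where it changes calls, its counts per list and some of the genes are given. Other alternatives were DESeq2 1.42.0, limma-voom (limma 3.58.1), other size factors, filters and read types, removal of mitochondrial and hemoglobin genes, fits on the compared groups alone, and libraries or numbers left out. The blocked model without each number was added after the data were seen. Figures used Python 3.11.15 and matplotlib 3.10.9.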

Additional observations from a re-analysis of the deposited data

How the results depend on the processing

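With ConA against untreated 5 of the 5 chemokine genes passed under every full-data alternative that tested them, and 3 of 3 with a mean of at least 50 reads, which left CCL20 and CXCL13 untested. With libraries or numbers left out 0 to 5 passed, the 0 being without number 2. With ConA+ALA against ALA 2 passed with the filter of 50 reads, 5 with the replicate block, and 0 to 5 with libraries or numbers left out. With ConA+ALA against ConA 0 to 1 did: CXCL10 passed only in the blocked model without number 3 (−1.01 ± 0.20, adjusted p = 0.045; over all its alternatives adjusted p ran from 0.045 to 1). With ALA against untreated and for the interaction 0 passed throughout.

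Over all genes, 2471 were called with ConA against untreated, 5676 with the replicate block, 1614 with the compared groups only, and 55 to 2467 with libraries or numbers left out (3627, 3794 and 5418 blocked without number 1, 2 or 3). For ConA+ALA against ALA these were 1085, 4022 with the block, 1830 with DESeq2, and 0 to 1184 (2096, 2157 and 3817 blocked without number 1, 2 or 3). For ConA+ALA against ConA they were 0, 74 with the block, 49 with DESeq2, 2 with no filter, 2 with total gene reads, 3 with the compared groups only, and 0 to 6 (23, 7 and 97 blocked without number 1, 2 or 3). For ALA against untreated they were 0, 6 with the block, 4 with DESeq2, and 0 to 18, and for the interaction 0, 4 with DESeq2, and 0 to 14. CCL17 with ConA+ALA against ALA also passed with DESeq2 (1.52, adjusted p = 0.026) and limma-voom (1.71, adjusted p = 0.050). Apart from CCL17 there, the block changed the call of none of the 5 genes. The fit on the compared groups only was not run for the interaction, which uses all 4 groups. The causes were not tested. CCL20 and CXCL13 rest on few reads, which limits their precision.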
